A study of Mus musculus with 9 samples.

Results

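The mouse miRNAs of the name families miR-297, miR-466 and miR-467, together with miR-669, form a large group of repeat-like small RNAs, most of them encoded in an intron of the imprinted gene Sfmbt2. Members were chosen by name alone: every known mouse miRNA of these 4 families, with any letter, copy number or arm suffix, was taken. This gave 77 of the 1607 known miRNA names counted in the series, made up of 6 names of miR-297, 31 of miR-466, 12 of miR-467 and 28 of miR-669. The rule uses names and no counts, although earlier results of these data were known when the families were picked. A name ending in 5p or 3p stands for the mature miRNA cut from the left or the right side of the hairpin precursor.

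Sfmbt2 encodes a Polycomb-type chromatin protein and is expressed mainly from the paternal copy in extra-embryonic tissue, where the gene and its intronic miRNAs are best known for a role in placental growth. miRNAs of this kind are cut from a long primary transcript as hairpins by the nuclear RNase III enzyme DROSHA, trimmed by DICER and loaded, usually as 1 arm of the duplex, into an Argonaute protein. The target choice of a mature miRNA depends mostly on its seed, bases 2 to 8 from the 5′ end.

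Small RNA was sequenced from whole mouse kidneys at embryonic day 16.5 in 9 libraries: 3 labelled wild type (control), 3 labelled with a DROSHA-E1147K transgene (E1147K alters an RNase III domain of the enzyme) and 3 labelled DROSHA knockout. The series concerns DROSHA in kidney development and in Wilms tumor, a kidney cancer of childhood. The labels name neither the mouse lines nor the cells in which DROSHA was altered, so the values describe whole kidneys that may still hold cells with normal DROSHA. The assay does not measure Drosha mRNA, and the genotype labels were therefore not checked by it. Whether libraries of 1 group stem from different animals is not stated in the labels, and each p-value below therefore reflects library-to-library spread that may be technical.

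Each library held between 24350500 and 34896599 reads of known miRNAs. Members took 77734 to 133867 reads per library under 68 to 75 names, which is 0.293% to 0.492% of the miRNA reads. All 6 kidney epithelium marker miRNAs were detected in every library. Their summed level was 94847 to 118053 CPM in control, 54029 to 90723 in transgene and 29616 to 63943 in knockout libraries. Most of this sum was 1 marker, miR-10a-5p, with means of 97856 CPM in control, 62418 in transgene and 44392 in knockout libraries. Each of the 6 markers had a log2 fold change below 0 in both comparisons with control. Here CPM means reads per 1000000 miRNA reads after TMM scaling, which corrects library totals for composition. The TMM factors ran from 0.882 to 0.926 in control libraries, were 1.13 in transgene 2 and transgene 3, and 1.11 in knockout 1. In bulk tissue, fewer cells of a type and less RNA per cell cannot be told apart. Of the muscle markers, all 4 were detected, with a summed level of 10059 CPM in knockout 3 against at most 1988 in the other 8 libraries.

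RefSeq (GRCm38.p6, the mm10 assembly) held 82 precursor loci under these names. Sfmbt2 lies at chr2:10370440-10595253 on the plus strand, and 72 of the loci lay inside it, between positions 10466663 and 10518279, a stretch of 51617 bases. All 72 sat in 1 intron, number 10 of transcript Sfmbt2-201, at chr2:10461473-10523944. The intron held 5 loci of miR-297, 24 of miR-466, 14 of miR-467 and 29 of miR-669, and no precursor of another name lay within Sfmbt2. The 10 other loci were on chromosomes 3, 5, 7, 9, 10, 11 and 13. By place, 62 names belonged to Sfmbt2 only and took 89.0% of member reads, 5 names had loci both there and elsewhere (8.63%), 8 names lay elsewhere only (2.08%), and the 2 arms of miR-466a matched no locus under that name (0.287%). The intron also holds 1 locus named Mir466, without a letter, which was matched to none of the counted names. Whether miR-466a comes from it was not tested.

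The order of precursors in the intron was regular. From 7.27 to 37.2 kb after the first precursor, 12 triplets followed one another, each with a miR-467, a miR-466 and a miR-669 precursor in that order within 600.0 to 611 bases. Starts of neighbouring triplets lay 2413 to 4880.0 bases apart, with a median of 2452. These triplets hold all copies of miR-467a (10 loci) and miR-466b (8 loci), and most copies of miR-669a (12 loci). Reads of 1 such name cannot be assigned to 1 of its copies. All 20 precursors in the middle part of the cluster (the cluster was cut into 3 equal parts) belonged to names with several copies, so no member with a single locus could be placed there.

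Mature sequences from RefSeq (GRCm38.p6) matched 7 of the 77 members, all encoded outside Sfmbt2. Of these, 4 are shown because they cover the tested members with a sequence and 3 of the 4 name families, with the seed in capitals.
miR-466i-3p: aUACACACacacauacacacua
miR-466k: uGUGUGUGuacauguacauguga
miR-467h: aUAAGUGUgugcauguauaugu
miR-669n: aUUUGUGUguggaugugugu
The mature sequence of miR-466i-3p is at chr13:17747552-17747573, that of miR-466k at chr3:85467396-85467418, that of miR-467h at chr9:115381898-115381919 and that of miR-669n at chr3:115979905-115979924, all on the plus strand. The letters show a run of alternating C and A in miR-466i-3p and shorter runs of alternating U and G in the others, within otherwise mixed sequence. The longest such run was 11 bases in miR-466i-3p, 9 in miR-466k, 7 in miR-467h and 8 in miR-669n. The 7 seeds all differed.

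The families were unequally abundant. The most abundant member was miR-467a-5p, with 25.9% of all member reads and rank 101 among all miRNA names. Within miR-467 it took 55.6% of the reads, miR-669b-5p took 38.3% of miR-669, miR-297a-5p took 88.3% of miR-297, and miR-466c-5p took 18.0% of miR-466. Only 8 members averaged at least 100 CPM and 32 averaged at least 10 CPM. At the other end, 17 of the 77 members had 3 to 59 reads in all libraries together and were too low for the test. The remaining 60 passed the filter on low counts, 5 of miR-297, 27 of miR-466, 9 of miR-467 and 19 of miR-669.

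**Figure D1:**
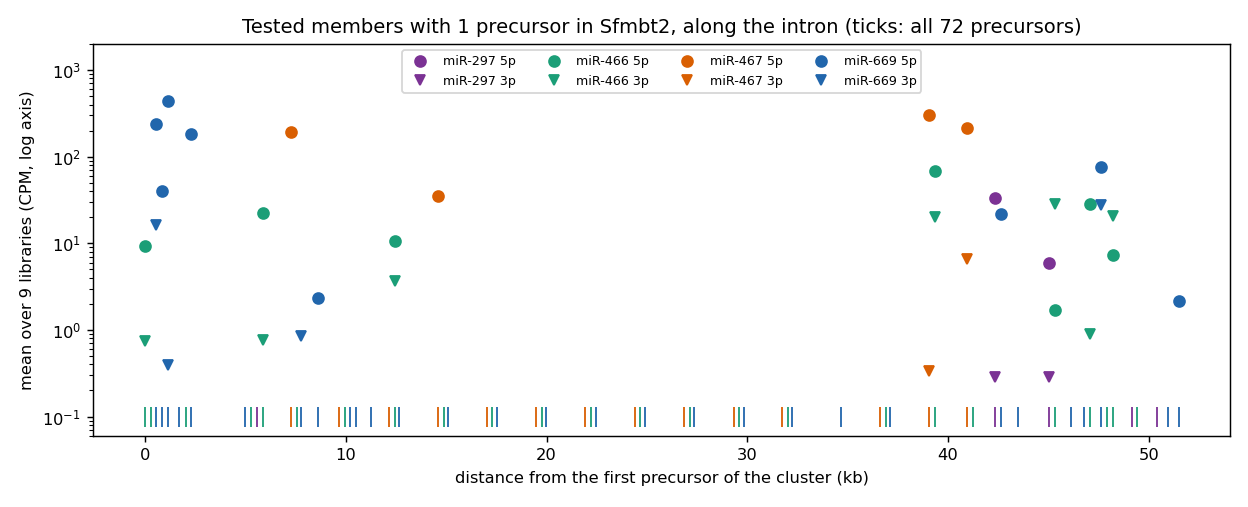
Mean level over 9 libraries (CPM, log axis) of tested members with 1 precursor in Sfmbt2, against the distance from the first precursor in kb; circles are 5p and triangles 3p members, colours are families, and ticks at the bottom mark all 72 precursors. The 5p members sit at both ends of the cluster, and the middle, with its repeated triplets, holds ticks only.

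Levels of neighbouring members differed widely along the intron. Only names with 1 locus were placed, so names with several copies, such as miR-467a-5p, are left out here. The 10 tested 5p members placed in the first part ranged from 2.34 to 444 CPM with a median of 37.8. The 11 placed in the last part ranged from 1.71 to 306 CPM with a median of 28.7. The highest of these names at each end were miR-669b-5p at 1.13 kb, with 444 CPM, and miR-467e-5p at 39.1 kb, with 306 CPM. Their median log2 fold change of knockout over control was -0.60 in the first part and -0.40 in the last.

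The summed level of all 77 members was 4153, 5579 and 3221 CPM in control libraries 1 to 3, 4228, 3659.7 and 3684 CPM in transgene libraries 1 to 3, and 2966, 3164 and 2841 CPM in knockout libraries 1 to 3. The 3 knockout libraries were the 3 lowest of the 9, and control 2 was the highest. Means were 4318 ± 1187 CPM in control, 3857 ± 321 in transgene and 2990.2 ± 163 in knockout (SD, n = 3 each). The knockout mean was 0.693 of the control mean and 0.775 of the transgene mean, with no overlap in either case. The gap to control depended on scaling, since the knockout and control ranges overlapped with plain totals of miRNA reads or of all counted reads in place of TMM. The gap to transgene had no overlap under any of the 3 scalings.

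Markers of other cell types were summed in the same libraries. All 3 erythroid markers were detected in every library, with a summed level of 21363 to 52266 CPM in control, 27185 to 79966 CPM in transgene and 71626 to 112119 CPM in knockout libraries. The knockout range lay above the control range, and miR-451a averaged 39996 CPM in control and 83712 CPM in knockout libraries. The 3 pancreas and liver markers summed to 1180.4 to 12196 CPM in control, 4925 to 21598 CPM in transgene and 1107 to 11179 CPM in knockout libraries. Among them miR-375-3p averaged 444 CPM in control, 4780.3 CPM in transgene and 2624 CPM in knockout libraries, with both DROSHA groups above all controls. The other markers of this list had lower means in knockout than in control. miR-122-5p averaged 4543 CPM in control, 7336 CPM in transgene and 2887 CPM in knockout libraries, with overlapping groups. miR-802-5p averaged 9.41 CPM in control, 99.98 CPM in transgene and 1.87 CPM in knockout libraries. Its knockout libraries all lay below all controls, while transgene overlapped control. The leukocyte and neural lists overlapped between all groups. None of the markers named here passed edgeR's adjusted test against control, and the part of these cells in the member levels was not tested.

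Among the 4 families the knockout mean of the summed level was below the control mean by similar ratios. Such a sum follows its most abundant names. miR-467 measured 1899, 2616 and 1599 CPM in control, 1988, 1692 and 1730.1 CPM in transgene, and 1373, 1465 and 1285 CPM in knockout libraries. Every knockout library lay below every control and transgene library, although knockout and control overlapped with plain totals of miRNA reads. The ratio of means was 0.674 for knockout over control and 0.885 for transgene over control. miR-669 measured 1296, 1765 and 942 CPM in control, 1350.1, 1066 and 1138 CPM in transgene, and 875, 938 and 971 CPM in knockout libraries. Only control 3 overlapped the knockout range, and the ratio of knockout over control was 0.696.

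miR-466 measured 547, 632 and 425 CPM in control, 532, 546 and 538 CPM in transgene, and 420.2, 438 and 356 CPM in knockout libraries. The transgene libraries lay close together within the control range, and all 3 knockout libraries lay below them. Its ratios were 0.757 for knockout over control and 1.01 for transgene over control. miR-297 measured 411, 565 and 255 CPM in control, 358, 356 and 278 CPM in transgene, and 297.3, 322 and 229 CPM in knockout libraries. All 3 groups overlapped, with a ratio of 0.689 for knockout over control. Against transgene, the knockout ranges of miR-466, miR-467 and miR-669 did not overlap under TMM or either of the other scalings, and that of miR-297 did. No test was made on these sums.

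**Figure D2:**
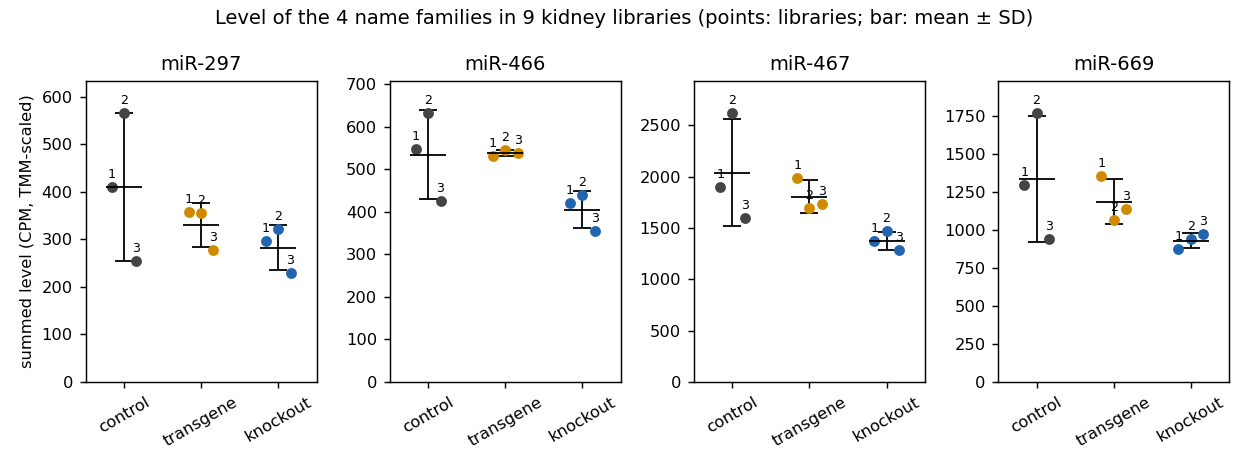
Summed level of each name family (CPM, TMM-scaled) in 9 libraries, grouped as control, transgene and knockout; points are libraries with their number, and the bar and whiskers are the mean and SD of 3. Control 2 is the highest library in all 4 panels, and the knockout points of miR-467 lie below all others.

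No member passed the test in any comparison, which does not show that levels were equal. edgeR's quasi-likelihood test with Benjamini-Hochberg adjustment over 955 miRNAs called 0 of 60 members for transgene against control (background 0.0%), 0 of 60 for knockout against control (background 0.0%) and 0 of 60 for knockout against transgene (background 0.105%, which is 1 miRNA that is no member). At an unadjusted p under 0.05 the members numbered 2, 9 and 4 of 60, beside a background of 8.8%, 25.7% and 7.02% of all miRNAs tested. By direction these were 1 higher and 1 lower for transgene against control (background 5.24% and 3.56%), 2 higher and 7 lower for knockout against control (background 15.6% and 10.1%), and 2 higher and 2 lower for knockout against transgene (background 3.46% and 3.56%). The members' shares were below or near the background. DESeq2 called 0, 3 and 1 members, beside a background of 0.419%, 11.8% and 0.314% of all miRNAs. The transgene and knockout comparisons share the same 3 control libraries.

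For transgene against control, 7 members had groups that did not overlap (background 24.0%), 5 of them higher (background 11.9%) and 2 lower (background 12.0%). The median log2 fold change of the 60 members was -0.04, beside -0.04 for all 955 miRNAs, and 32 of 60 lay below 0 (background 53.3%). For knockout against control, 9 members did not overlap (background 28.5%), 1 higher (background 12.9%) and 8 lower (background 15.6%). The median was -0.34 beside -0.03 for all miRNAs, and 42 of 60 lay below 0 (background 51.1%). With plain totals of miRNA reads, that median was -0.13 beside 0.19 for all miRNAs. By family under TMM scaling, 3 of 5 miR-297 names and 23 of 27 miR-466 names lay below 0. So did 4 of 9 miR-467 names and 12 of 19 miR-669 names. Their medians were -0.13, -0.37, 0.11 and -0.43 in that order.

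For knockout against transgene, 15 members did not overlap (background 10.4%), 2 higher (background 4.4%) and 13 lower (background 5.97%). The median was -0.34 beside 0.05, and 48 of 60 members lay below 0 (background 46.9%). By family, 2 of 5 miR-297 names, 23 of 27 miR-466 names, 8 of 9 miR-467 names and 15 of 19 miR-669 names lay below 0. These family counts were identical with plain totals of miRNA reads, with all counted reads and in DESeq2. Medians were 0.21 for miR-297, -0.44 for miR-466, -0.41 for miR-467 and -0.39 for miR-669.

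The highest member, miR-467a-5p, measured 1086, 1576 and 938 CPM in control, 932, 917 and 953 CPM in transgene, and 784, 813 and 715 CPM in knockout libraries. All knockout libraries lay below all others, and transgene overlapped control. Its log2 fold change for knockout against control was -0.64 (SE 0.22), which did not pass edgeR's quasi-likelihood test with Benjamini-Hochberg adjustment (adjusted p = 0.147). For transgene against control it was -0.36 (SE 0.22, edgeR adjusted p = 0.597).

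miR-467c-5p measured 236, 297.02 and 193 CPM in control, 273, 194 and 189 CPM in transgene, and 140.1, 127 and 81.4 CPM in knockout libraries. Its knockout values were the 3 lowest of the 9. The log2 fold change against control was -1.06 (SE 0.30, edgeR adjusted p = 0.108), and DESeq2 gave an adjusted p of 0.0282. miR-467d-5p showed the same order, with 233, 321 and 213 CPM in control, 234, 218 and 229.8 CPM in transgene, and 159, 159 and 186 CPM in knockout libraries. Its log2 fold change against control was -0.60 (SE 0.23, edgeR adjusted p = 0.168). miR-467e-5p measured 278, 396 and 233 CPM in control, 489, 292 and 328 CPM in transgene, and 235, 265 and 241 CPM in knockout libraries, where knockout lay below transgene but overlapped control. Its log2 fold change against control was 0.29 for transgene and -0.29 for knockout.

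miR-466i-5p, the partner arm of a sequence shown above, measured 12.2, 7.58 and 13.3 CPM in control, 8.95, 5.30 and 6.36 CPM in transgene, and 4.996, 5.82 and 5.57 CPM in knockout libraries. The knockout libraries lay below all controls and overlapped transgene. Its log2 fold change for knockout against control was -1.01 (SE 0.31, edgeR adjusted p = 0.115), with an adjusted p of 0.0384 in DESeq2. For transgene against control it was -0.68 (SE 0.31, edgeR adjusted p = 0.530).

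miR-466b-5p, a name with 8 copies in the intron, measured 43.5, 20.7 and 20.2 CPM in control, 7.90, 6.10 and 6.67 CPM in transgene, and 33.4, 6.63 and 3.04 CPM in knockout libraries. All 3 transgene libraries lay below all controls, while knockout 1 lay within the control range. The log2 fold change was -2.03 (SE 0.79, edgeR adjusted p = 0.529) for transgene and -0.97 (SE 0.76, edgeR adjusted p = 0.466) for knockout. The summed level of miR-466b-5p with the related names miR-466c-5p and miR-466p-5p, a sum chosen after the values were seen, overlapped between all groups, with means of 198 CPM in control, 179 CPM in transgene and 145 CPM in knockout libraries. Without knockout 1, the only knockout library in the control range, the knockout value of miR-466b-5p was -2.47 with an edgeR adjusted p of 0.0467. That fit called 48 of 1001 miRNAs, and leaving out the library that differed gives no independent support. miR-669b-3p, at 0.08 to 0.71 CPM, was higher in all transgene than in all control libraries, with a log2 fold change of 1.41 (SE 0.56, edgeR adjusted p = 0.529).

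**Figure D3:**
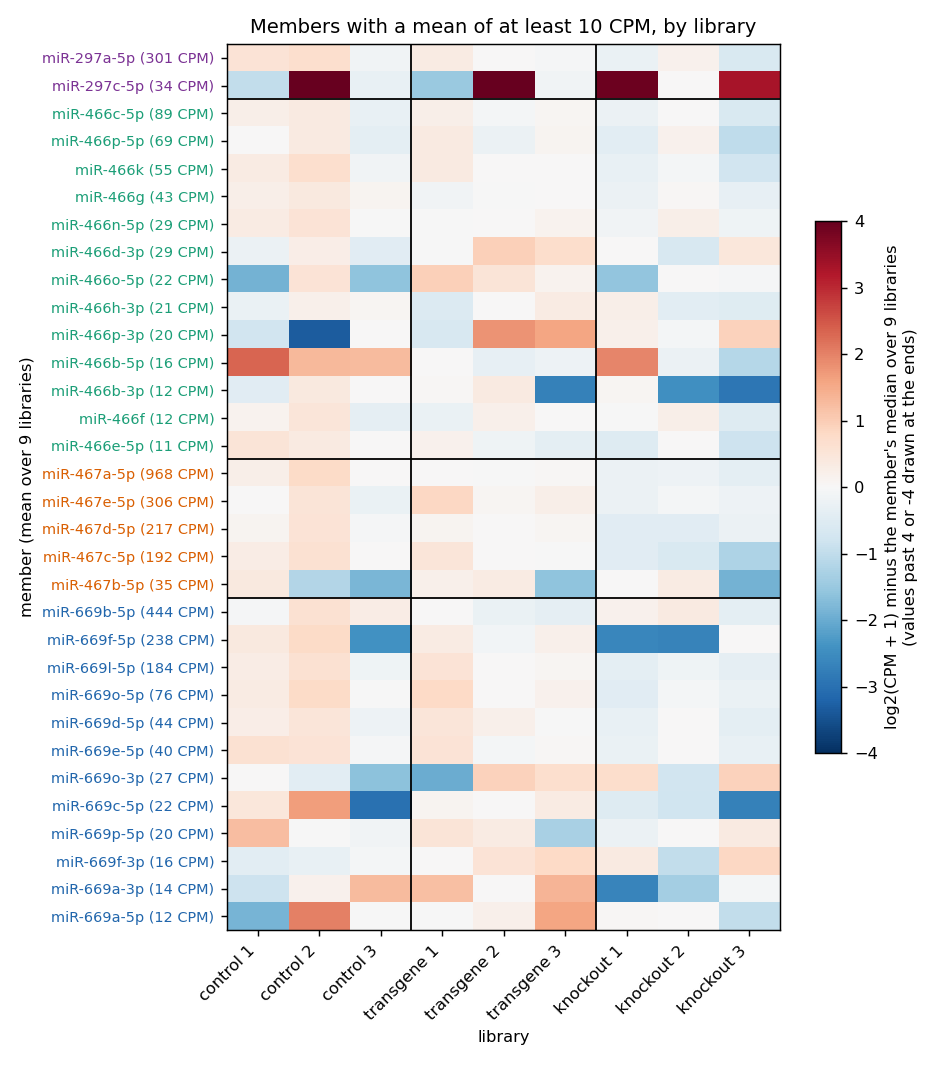
Heat map of the 32 members with a mean of at least 10 CPM (rows, by family, with the mean in CPM) in 9 libraries (columns); colour is log2(CPM + 1) minus the member's median over 9 libraries, with red higher and blue lower. Most rows are pale, and a few, such as miR-297c-5p, miR-669f-5p and miR-669c-5p, switch between libraries of the same group.

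Several members varied far more between libraries of 1 group than others. Spread was taken as the highest over the lowest library of a group, on CPM + 1, and the largest of the 3 groups was kept. Of the 32 members averaging at least 10 CPM, 11 passed a spread of 4-fold (34.4%), beside 77 of the 433 other miRNAs at that level (17.8%). Between 10 and 100 CPM it was 10 of 24 members (41.7%) and 37 of 176 others (21.0%), and above 100 CPM it was 1 of 8 members and 40 of 257 others (15.6%). The median spread was 1.82-fold for members and 2.12-fold for the others. The steadiest was miR-466g at 1.28-fold. Names with 1 locus passed in 7 of 22 cases and names with more loci in 4 of 10.

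The widest spread, 53.5-fold, was that of miR-297c-5p. It measured 1.16, 115 and 2.43 CPM in control, 0.51, 72.03 and 2.85 CPM in transgene, and 64.0, 3.26 and 41.0 CPM in knockout libraries. High and low libraries occurred in every group, and its log2 fold change for transgene against control was -0.65 with an SE of 1.95. The other miR-297 name of note, miR-297a-5p, was steady at 402, 442 and 248 CPM in control, 351, 276 and 268 CPM in transgene, and 228, 311 and 183 CPM in knockout libraries. Its log2 fold change for knockout against control was -0.60 (SE 0.30, edgeR adjusted p = 0.260). miR-297c-5p made up 18.3% to 21.9% of the sum of both names in control 2, transgene 2, knockout 1 and knockout 3, and 0.144% to 1.05% in the other 5 libraries.

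A similar division into libraries was seen for miR-669f-5p, which measured 360, 466.1 and 49.7 CPM in control, 341, 255 and 312 CPM in transgene, and 44.2, 41.8 and 274 CPM in knockout libraries. It was low in control 3, knockout 1 and knockout 2, and high in the other 6. Encoded near it in the intron, with the miR-669e precursor between them, miR-669b-5p measured 409, 643 and 521 CPM in control, 420.0, 350 and 327 CPM in transgene, and 476, 533 and 320.0 CPM in knockout libraries. The share of miR-669f-5p in the sum of both was 7.26% to 8.72% in the 3 low libraries and 42.0% to 48.8% in the other 6. The sum differed by 2.13-fold between its highest and lowest library, and its knockout libraries measured 520.4, 575 and 594 CPM. The log2 fold change of miR-669f-5p for knockout against control was -1.28 with an SE of 0.89 (edgeR adjusted p = 0.408). For miR-669b-5p it was -0.24 for knockout and -0.52 for transgene, both against control.

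miR-467h, which is encoded on chromosome 9 and not in Sfmbt2, had the largest log2 fold change of the members. It measured 1.45, 0.29 and 1.03 CPM in control, 1.78, 0.22 and 0.93 CPM in transgene, and 0.84, 42.3 and 34.0 CPM in knockout libraries. Only knockout 2 and knockout 3 were high, and knockout 1 lay within the range of the other 6 libraries. The log2 fold change for knockout against control was 4.79 (SE 1.34, edgeR adjusted p = 0.108), with a DESeq2 adjusted p of 0.00234. Without knockout 1, the only knockout library that was not high, it was 5.40 with an edgeR adjusted p of 0.0432. That fit called 48 of 1001 miRNAs. Because it leaves out the library that differed, it gives no independent support. Set beside miR-467c-5p, a pair chosen after the values were seen, miR-467h made up 25.0% and 29.5% of the sum in knockout 2 and knockout 3, and 0.0981% to 0.646% in the other 7 libraries. The sum of both was 141, 169 and 115 CPM in knockout libraries, below all 3 controls (237, 297.3 and 194 CPM). For reads that fit several names, the counting rule was not stated in the sources used here, and its part in these values was not tested.

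**Figure D4:**
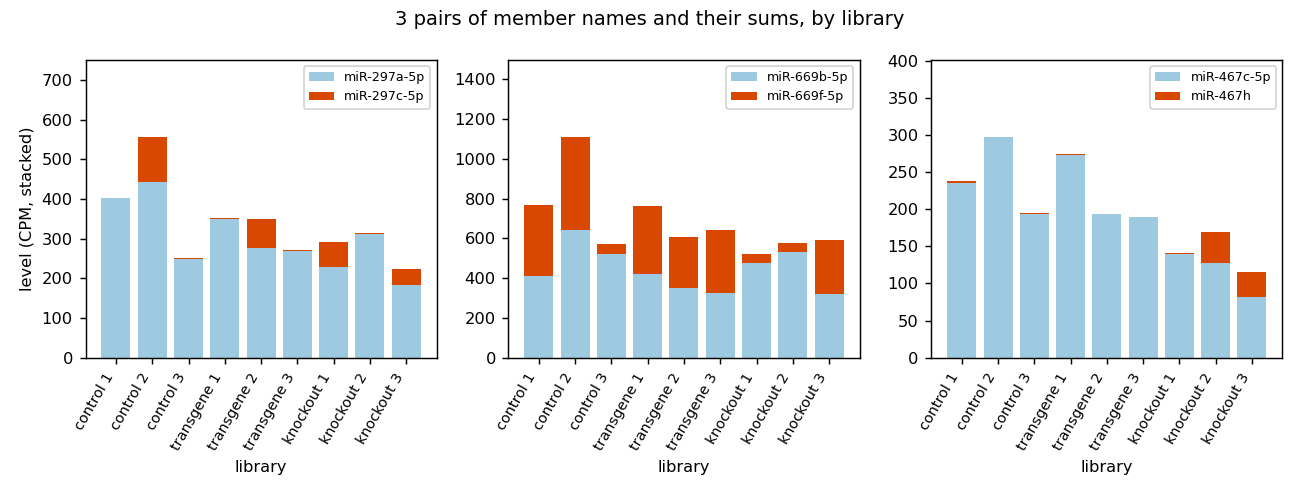
Stacked level (CPM) of 3 pairs of member names in 9 libraries: miR-297a-5p with miR-297c-5p, miR-669b-5p with miR-669f-5p, and miR-467c-5p with miR-467h. The dark part appears in some libraries of a group and is nearly missing in others, as for miR-467h, which shows only in knockout 2 and knockout 3.

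The other abundant members were steadier. miR-466c-5p measured 105, 115 and 73.0 CPM in control, 106, 84.8 and 93.9 CPM in transgene, and 75.9, 89.5 and 58.4 CPM in knockout libraries. miR-466p-5p measured 71.9, 91.8 and 54.6 CPM in control, 91.9, 60.9 and 77.0 CPM in transgene, and 53.3, 80.8 and 35.3 CPM in knockout libraries. The groups of both names overlapped in all 3 comparisons. For transgene against control their log2 fold changes were -0.04 and 0.07. For knockout against control they were -0.39 and -0.37. Across the 32 members averaging at least 10 CPM, control 2 was the highest library for 16 and knockout 3 the lowest for 16. In knockout 3 the summed kidney epithelium markers, a sum made mostly of miR-10a-5p, were also at their lowest. The muscle markers were at their highest there, and the part of either list in the member levels was not tested.

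The 5p arm dominated 3 of the families. Its share of the 5p and 3p reads was 99.4% to 99.9% in miR-297, 98.7% to 99.7% in miR-467, 91.0% to 97.5% in miR-669 and 56.7% to 80.6% in miR-466. The exceptions were certain names. Over all libraries the 5p share was 5.56% in miR-466d, 21.99% in miR-466f and 27.1% in miR-466h, so 3p reads exceeded 5p reads there. Names without an arm suffix were left out of all these shares. The name miR-466f without an arm held 2971 reads, more than the 1646 of miR-466f-3p. Pooled over libraries it was 45.8% in miR-466a, 58.7% in miR-466b and 44.2% in miR-669a, but the balance differed by library, with 5p above 3p in 6, 6 and 3 of the 9. For miR-669a, 5p and 3p measured 1.38 and 5.69 CPM in control 1 but 8.0 and 0.91 CPM in knockout 1.

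The arms separated by library. The summed 3p members measured 142, 163 and 154 CPM in control, 145, 281 and 276 CPM in transgene, and 179, 93.6 and 228 CPM in knockout libraries. Transgene 2, transgene 3 and knockout 3 were high, and transgene 1 lay with the controls. The summed 5p members measured 3880.3, 5257 and 2964 CPM in control, 3965, 3269 and 3299 CPM in transgene, and 2695, 2920.4 and 2506 CPM in knockout libraries, with every knockout library below every other library under TMM scaling. In miR-466 the 5p share was 78.0%, 76.3% and 70.9% in control, 78.7%, 58.6% and 62.6% in transgene, and 68.1%, 80.6% and 56.7% in knockout libraries.

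For transgene against control, 20 of the 24 tested 3p members lay above 0, with a median log2 fold change of 0.64, while 25 of the 32 tested 5p members lay below 0, with a median of -0.25. Without control 2, the 5p members divided into 17 below and 15 above 0 (median -0.01), and 20 of 24 3p members still lay above 0 (median 0.49). The 5 members that were higher in all transgene than in all control libraries, fewer as a share of the 60 tested (8.33%) than the background of 11.9%, were miR-467a-3p, miR-669a-3-3p, miR-669b-3p, miR-669f-3p and miR-669m-3p. As an example, miR-669f-3p measured 10.2, 11.1 and 13.1 CPM in control and 14.0, 21.0 and 25.1 CPM in transgene libraries. With plain totals of miRNA reads, 21 of 24 3p members lay above 0 and only 17 of 32 5p members lay below 0. For knockout against control, 29 of 32 5p members lay below 0 (median -0.59) and 14 of 24 3p members lay above 0 (median 0.12). Without knockout 3, the 3p median was -0.13, and 29 of 32 became 27 of 32. For knockout against transgene both arms lay mostly below 0, 26 of 32 for 5p and 19 of 24 for 3p (3p median -0.51). Without knockout 2, the 3p members divided into 14 below and 10 above 0 (median -0.17), and 25 of 32 5p members lay below 0. Of all miRNAs tested, 53.3% lay below 0 for transgene against control and 51.1% for knockout against control. For knockout against transgene it was 46.9%. Several 3p members averaged under 1 CPM and related names may share reads, so the members are not separate observations.

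The median arm shift of other miRNAs was smaller in these libraries, although opposite shifts of single hairpins cancel in a median. Over 23 member hairpins with both arms tested, the median log2 ratio of 3p over 5p, taken against each hairpin's mean over 9 libraries, was 0.58 in transgene 2, 0.53 in transgene 3, 0.51 in knockout 3 and 0.32 in knockout 1. Over 283 other hairpins it was 0.01, 0.01, 0.13 and 0.07 in these libraries. In the lowest library, control 2, it was -0.66 for members and -0.08 for the others. The 5p share of all other miRNA reads was lowest in the same libraries. It was 65.1% in knockout 3, 67.3% in knockout 1, 67.5% in transgene 3 and 68.3% in transgene 2. In the remaining libraries it was 68.8% to 71.7%. Whether library preparation took part in the arm difference was not tested.

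**Figure D5:**
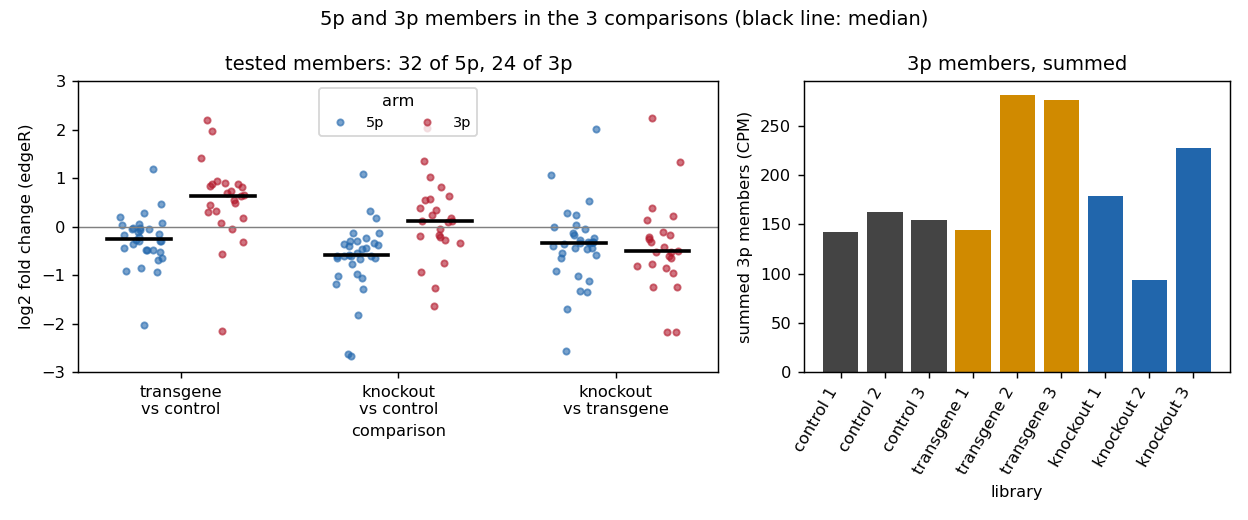
Left, log2 fold change (edgeR) of the 32 tested 5p members (blue) and 24 tested 3p members (red) in the 3 comparisons, with points for members and black lines for medians. Right, the summed 3p members (CPM) in each library, where transgene 2, transgene 3 and knockout 3 stand above the rest.

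Other imprinted miRNAs were set beside the members: the 10 arms of miR-335 (in Mest), miR-296 and miR-298 (in Nespas), miR-483 (in Igf2) and miR-675 (in H19). edgeR's quasi-likelihood test called 0 of 10 in each comparison, with 0 at an unadjusted p under 0.05 and 0 called by DESeq2. Their median log2 fold change was 0.00 for transgene against control, -0.10 for knockout against control and -0.08 for knockout against transgene. The 5 miRNAs of the miR-290 cluster, markers of the early embryo and trophoblast, summed to 3.58 to 142 CPM in control, 4.82 to 175 CPM in transgene and 3.71 to 40.4 CPM in knockout libraries. Their highest libraries were control 3 and transgene 1. The member sum there was 3221 and 4228 CPM, beside 5579 CPM in control 2, its highest library. The part of such cells in the member levels was not tested.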

How the data were processed

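Per the labels' protocols, whole kidneys were flash frozen, Trizol was used for RNA and libraries were prepared by BGI's standard small RNA procedure. CASAVA 1.8, Bowtie2 and the build mm10 are named in the submitters' processing notes, without role or order. The authors deposited whole-number counts, 1 row a small RNA name, that add up to each header's total. They also deposited TPM values, which equal counts scaled to 1000000 reads of that total and entered no test. No molecular identifiers are named in the labels, so reads were taken as reads, not molecules.

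Counts of known mouse miRNAs were fitted with edgeR 4.0.16 in R 4.3.3 over all 9 libraries, with TMM scaling, filterByExpr and the group as a factor of 3 levels. Quasi-likelihood F tests were adjusted over 955 miRNAs (Benjamini-Hochberg, threshold 0.05). Groups came from titles and genotype labels. DESeq2 1.42.0, other scalings, filters, a replicate block and leaving out each library were alternatives. Steps were tested on simulated data. There, edgeR recovered 15.4% of 2-fold and 68.9% of 4-fold changes for knockout against control, so smaller changes can be missed. Log2 fold changes are printed for the 2 most abundant members of each family, any member past the threshold, and the 3 further members with the smallest p in each comparison with control; others singled out were chosen after their values were seen. Members and lists were chosen with earlier results of these data known. Names are given without the species prefix.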

Additional observations from a re-analysis of the deposited data

How the results depend on the processing

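Of 1061 values recomputed under 18 alternatives, 1004 kept their direction and their side of the threshold. DESeq2 called 4 miRNAs for transgene against control (0 members), 113 for knockout against control (3 members) and 3 for knockout against transgene (1 member), where edgeR called 0, 0 and 1. Leaving out 1 library gave 0 to 48 calls (0 to 2 members) for knockout against control, the 48 without knockout 1, and 0 to 1 for knockout against transgene. The latter was 0 with a mean of at least 10 CPM, with only 2 groups fitted and with the replicate block. Same-numbered libraries did not deviate together (correlations -0.28 to 0.07), and the block called 0 members. With plain totals of miRNA reads the median of all miRNAs moved to 0.18 (transgene) and 0.19 (knockout), the miR-466 median to 0.18 and -0.15, and the miR-466 level to 0.24 for transgene over control; with all counted reads the miR-466 median was 0.11 for transgene.

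Reversed log2 fold changes for transgene against control were those of miR-466c-5p (0.18 with plain totals, 0.11 with all reads, 0.018 unfiltered, 0.061 with 2 groups, -0.23 to 0.11 leaving out 1 library), miR-467c-5p (0.053 with plain totals, -0.39 to 0.021), miR-467d-5p (0.053 with plain totals), miR-669f-5p (-0.076 with the replicate block, -0.47 to 0.54), miR-297c-5p (-4.45 to 3.72), miR-466p-5p (-0.12 to 0.29), miR-467e-5p (-0.013 to 0.51) and miR-467h (-0.75 to 0.60). For knockout against control they were miR-297c-5p (0.16 with plain totals, 0.064 with all reads, 3.85 with the replicate block, -0.82 to 4.28 leaving out 1 library), miR-669b-3p (-0.50 to 0.54) and miR-669b-5p (-0.43 to 0.047). The cause was not tested. Members under about 1 CPM rest on few reads per library, which limits their folds.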
